A study of Rattus norvegicus with 6 samples.

Results

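Neurotrophic factors are secreted proteins that keep neurons alive and shape their excitability, and the genes described here are 9 of them and their receptors: Bdnf, Ntf3, Gdnf, Artn, Ngfr, Ntrk2, Ntrk3, Gfra1 and Gfra2. They were chosen by gene symbol as factors and receptors tied to pain, and all 9 were found among the 20675 genes of the deposited table. RNA was sequenced from primary disc cells of the temporomandibular (jaw) joint of rats, where the disc is a pad of fibrous tissue. Cells in one group received GSK101, which opens the calcium-permeable channel TRPV4, and control cells received the solvent DMSO, for 24 h in both cases and with 3 libraries each. The dose, the strain and the age of the rats, and whether replicates came from separate animals or cultures, are not given in the sources used here, so p-values measure the spread between these libraries, which may be partly technical.

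Neurotrophins such as BDNF and neurotrophin 3 bind receptor tyrosine kinases of the Trk family, and all of them, with their uncleaved precursors, also bind the low-affinity receptor encoded by Ngfr. Ligands of the GDNF family bind a co-receptor of the GFRA family that is anchored to the membrane, and the pair signals through the receptor tyrosine kinase RET. Fibroblasts and other cells of joint tissue can secrete such factors, whereas sensory neurons that detect painful stimuli carry many of the receptors.

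With GSK101, Gdnf rose 1.58-fold and Bdnf fell 1.57-fold, while no change of Artn or Gfra1 was detected. Ntrk3 transcripts were scarce and the mean was 2.09-fold lower, and the remaining 4 genes had only 2 to 44 reads per library. Levels are given in RPKM, reads per kilobase of exon per 1000000 reads counted to genes. The test was limma on log2(RPKM + 0.5) over the 12801 genes that reached 0.5 RPKM in 3 or more libraries, with calls at a Benjamini-Hochberg adjusted p under 0.05. Of the 9 genes 4 entered this test, where 1 was called higher and 1 lower. Over all tested genes 31.9% were called, 20.1% higher and 11.9% lower, so 2 calls among 4 tested genes are too few to read against that background. The groups did not overlap for 2 of these 4 genes, against 47.3% of all tested genes.

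Gene starts of Gdnf and Bdnf are shown because these were the members called in the test. RefSeq windows (build GRCr8, 250 bases before to 50 after a gene start) were matched by symbol for 5 of the 9 genes, with 6 windows for the alternative starts of Bdnf. The Gdnf window is chr2:58621077-58621376 and the fourth Bdnf window chr3:116637608-116637907, both on the plus strand and written 5′ to 3′. Capitals mark the cAMP response element half-site TGACG, which both hold on the reverse strand.
Gdnf: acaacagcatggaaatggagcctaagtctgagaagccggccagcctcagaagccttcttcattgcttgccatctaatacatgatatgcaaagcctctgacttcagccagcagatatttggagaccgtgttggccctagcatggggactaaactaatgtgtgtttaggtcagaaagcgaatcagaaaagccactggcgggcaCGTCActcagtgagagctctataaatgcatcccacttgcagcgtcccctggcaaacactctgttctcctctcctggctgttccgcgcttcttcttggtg
Bdnf: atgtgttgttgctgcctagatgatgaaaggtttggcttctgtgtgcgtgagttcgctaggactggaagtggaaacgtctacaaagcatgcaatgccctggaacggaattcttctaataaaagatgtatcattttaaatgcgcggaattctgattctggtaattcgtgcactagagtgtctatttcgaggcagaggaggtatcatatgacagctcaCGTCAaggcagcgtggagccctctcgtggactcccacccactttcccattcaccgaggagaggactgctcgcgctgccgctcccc
The half-site began 49 bases before the start in Gdnf and 35 bases before it in this Bdnf window. The other 5 Bdnf windows held none, so the printed Bdnf window is the 1 with the match. The window of Artn, which was not called, also held it, 121 bases before the start on the strand of the gene. It was present in 21.2% of the 33469 rat windows of the same length, searched on both strands. This share is for a single window, and the 6 windows of Bdnf gave more places for a match. Neither the full element TGACGTCA, held by 1.83% of all windows, nor the AP-1 sequence TGACTCA, held by 4.63%, was found in any window of the 5 genes. The counts are sums over each gene, so the use of single starts was not measured, and a match is a description of the letters only.

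The levels of the 9 genes fell into an upper and a lower range. In the control libraries the order of mean RPKM was Gdnf (2.51), Artn (2.39), Bdnf (2.00), Gfra1 (0.634), Ntrk3 (0.391), Ngfr (0.0972), Gfra2 (0.0562), Ntf3 (0.0482) and Ntrk2 (0.0477). Gdnf and Artn overlapped there, as did the last 4 genes among each other, whereas the values from Artn down to Ntrk3 were separated at each step. With GSK101, Gdnf (3.97), Artn (2.17), Bdnf (1.27) and Gfra1 (0.632) were separated at each step, and the values of Ntrk3 (0.187) overlapped those of Gfra2 (0.129). The order between genes depends on the listed exon lengths, 700 bases for Gdnf and 6068 for Bdnf. In reads, Gdnf had 71 to 83 per control library and Bdnf 539 to 542.

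**Figure D1:**
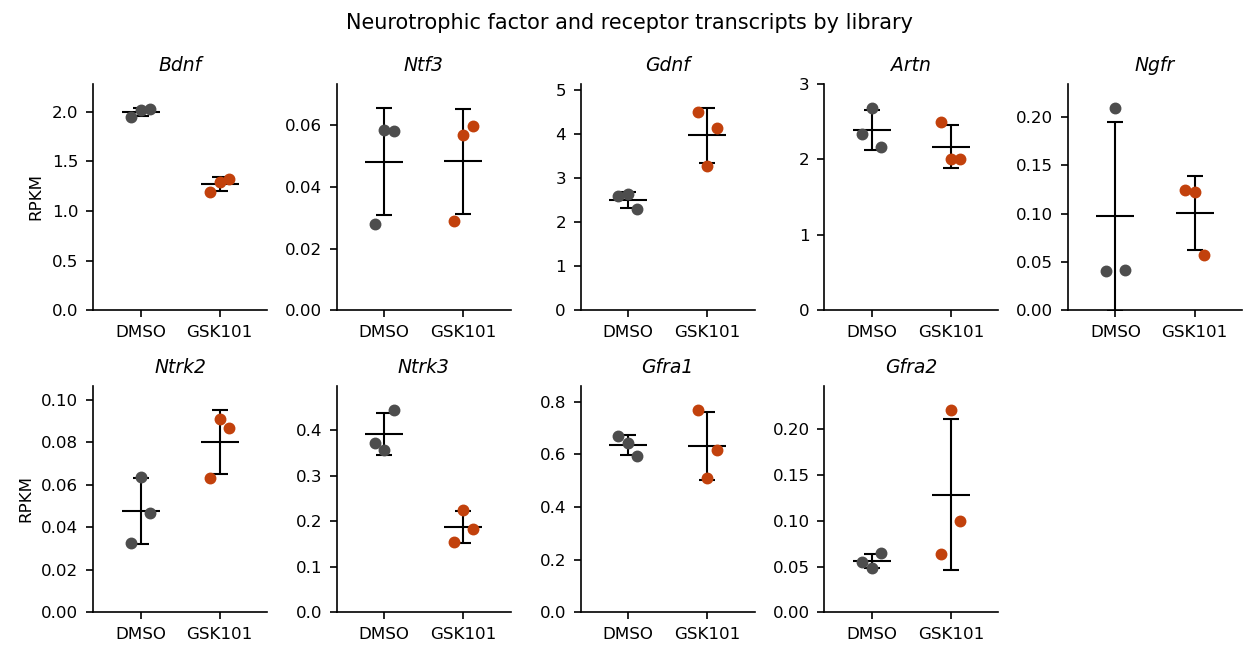
RPKM of the 9 genes in each library (points), with the mean and SD of the 3 DMSO and 3 GSK101 libraries (bars); each panel has its own axis from 0. The groups are separated for Bdnf, Gdnf and Ntrk3 and overlap for the other 6 genes.

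Among the neurotrophin ligands, Bdnf encodes brain-derived neurotrophic factor, the main ligand of the receptor encoded by Ntrk2. On the Rnor_6.0 build of the file it lies on the plus strand of chromosome 3 from 100768637 to 100819210. Its RPKM was 1.95, 2.02 and 2.02 in the control libraries, on 541, 539 and 542 reads, and 1.19, 1.30 and 1.32 with GSK101, on 322, 356 and 345 reads. The groups were well apart and each was tight. The mean fell from 2.00 ± 0.041 to 1.27 ± 0.068 (SD, n = 3). On the log2(RPKM + 0.5) scale the change was -0.50 (SE 0.08, 95% interval -0.69 to -0.31, limma adjusted p = 0.00327). Of all tested genes 2.39% had a log2 fold change as low or lower.

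Ntf3 encodes neurotrophin 3, the main ligand of the receptor encoded by Ntrk3, and was barely detected, with 2, 4 and 4 reads per library in the controls and 2, 4 and 4 with GSK101. These counts lie about the floor of 3 reads, so the log2 ratio of the means, 0.0054, is not read in either direction. A difference was not detectable at this depth. Ntf4, which encodes another neurotrophin, stayed under the filter, at 0.163 RPKM in the controls and 0.0967 with GSK101, with overlapping libraries.

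Among the ligands of the GDNF family, Gdnf encodes glial cell line-derived neurotrophic factor, which binds mainly the co-receptor encoded by Gfra1. The gene lies on the plus strand of chromosome 2 from 56887987 to 56910238, and its listed exons sum to 700 bases. Its RPKM was 2.59, 2.63 and 2.30 in the control libraries, on 83, 81 and 71 reads, and 4.49, 3.28 and 4.15 with GSK101, on 140, 104 and 125 reads. All GSK101 libraries lay above all controls, and they were more spread. The mean rose from 2.51 ± 0.18 to 3.97 ± 0.62 (SD, n = 3). On the log2(RPKM + 0.5) scale the change was 0.56 (SE 0.11, 95% interval 0.31 to 0.82, limma adjusted p = 0.00737). Of all tested genes 5.37% had a log2 fold change as high or higher.

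Artn encodes artemin, which binds mainly the co-receptor encoded by Gfra3 and acts on pain-sensing neurons. Its position is chromosome 5, 136759717 to 136762986, minus strand. Its RPKM was 2.33, 2.68 and 2.16 in the control libraries and 2.50, 2.01 and 2.01 with GSK101, with overlapping groups. The log2 fold change was -0.12 (95% interval -0.36 to 0.13, limma adjusted p = 0.449), so a change as large as that of Gdnf lay outside the interval. Pspn, which encodes persephin, stayed under the filter at 0.174 RPKM in the controls and 0.336 with GSK101, with 0 reads in control replicate 3. Of the 4 ligands on this list 3 were found and 2 tested, and Gdnf was the 1 called.

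Because the ligands moved in opposite directions, the Gdnf to Bdnf ratio of RPKM within each library was taken after the values had been seen. Scaling each library by a single factor does not alter it, whereas quantile normalization can. Its level depends on the listed exon lengths of the genes, but its fold change between groups does not. It was 1.33, 1.30 and 1.14 in the controls and 3.77, 2.53 and 3.14 with GSK101, 2.51-fold higher by the means. The separation restates the calls of the 2 genes and is given as a description, with no test.

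**Figure D2:**
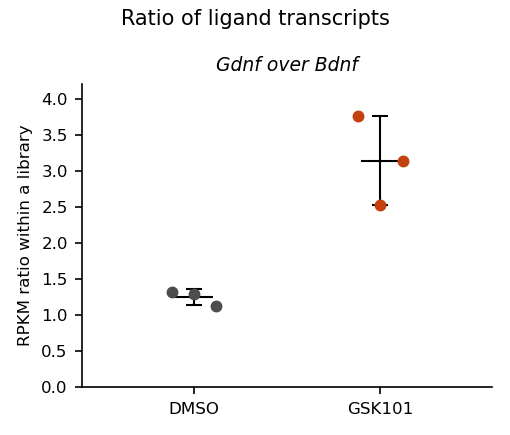
RPKM ratio of Gdnf to Bdnf within each library (points), with the mean and SD of 3 DMSO and 3 GSK101 libraries (bars). The ratio runs from 1.14 to 1.33 in the controls and from 2.53 to 3.77 with GSK101.

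Of the neurotrophin receptors among the 9 genes, none reached the filter. Ntrk3 encodes TrkC, the receptor tyrosine kinase for neurotrophin 3 (chromosome 1, 139890560 to 140262503, minus strand). Its RPKM was 0.372, 0.357 and 0.445 in the control libraries, on 52, 48 and 60 reads, and 0.154, 0.224 and 0.182 with GSK101, on 21, 31 and 24 reads. Every GSK101 library lay below every control, and the mean went from 0.391 ± 0.047 to 0.187 ± 0.035 (SD, n = 3; exact two-sided permutation p = 0.1, the smallest that this design allows). Of the 7874 genes below the filter, 9.73% had groups that did not overlap, and Ntrk3 was the 1 such gene among the 5 members there. When the test was run without a filter, Ntrk3 was called lower with a log2 fold change of -0.38 (limma adjusted p = 0.0168), where 6.13% of 20675 genes were called lower. With limma-voom on the reads of 14366 genes with at least 10 reads in 3 libraries, an alternative added after the data were seen, the log2 fold change was -1.06 (SE 0.27, adjusted p = 0.00671), where 32.5% of genes were called and 11.7% were lower. Reads were summed over the gene, so forms with and without the kinase domain cannot be told apart.

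Ntrk2 encodes TrkB, the receptor tyrosine kinase for BDNF. It had 16, 30 and 22 reads in the control libraries and 30, 44 and 40 with GSK101, which over its 10685 bases of exon gave 0.0477 ± 0.016 and 0.0803 ± 0.015 RPKM (SD, n = 3). The lowest GSK101 library, at 0.0630, lay just under the highest control, at 0.0639 (exact two-sided permutation p = 0.2; limma-voom adjusted p = 0.0787). Ngfr had 6, 30 and 6 reads in the controls and 18, 18 and 8 with GSK101, with control replicate 2 highest of all at 0.210 RPKM and the groups overlapping (exact two-sided permutation p = 1). The log2 ratio of the Ngfr means was 0.06 in all libraries and 1.30 without that control.

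Of the wider list of 9 neurotrophin receptor genes 8 were found, and 1 was tested and called. Sort1 encodes sortilin, a sorting receptor that binds neurotrophin precursors together with the product of Ngfr and takes part in the trafficking of BDNF. It went from 12.5 ± 1.0 to 7.33 ± 0.16 RPKM (SD, n = 3). Its log2 difference was -0.73 (SE 0.07, limma adjusted p = 0.000339), and every GSK101 library was below every control. Its relative Sorcs2 stayed under the filter, at 0.103 and 0.118 RPKM.

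The co-receptors of the GDNF family showed no call. Gfra1 (chromosome 1, 279207586 to 279277339, minus strand) had an RPKM of 0.669, 0.641 and 0.593 in the control libraries and 0.769, 0.512 and 0.616 with GSK101. The GSK101 values lay on both sides of the controls, with a log2 fold change of -0.01 (95% interval -0.30 to 0.28, limma adjusted p = 0.969). Gfra2, which binds mainly neurturin, had 7, 6 and 8 reads in the controls and 8, 28 and 12 with GSK101, with GSK101 replicate 2 far above the other 5 libraries at 0.221 RPKM. The groups overlapped (exact two-sided permutation p = 0.2), and the log2 ratio of the means moved from 1.19 to 0.55 without that library. Ret was scarce too, with 0.102 ± 0.039 RPKM in control and 0.165 ± 0.055 RPKM in treated libraries (SD, n = 3), which overlapped. Ncam1, a cell adhesion molecule that can also bind GDNF, was far more abundant at 22.4 and 20.4 RPKM and did not pass (limma adjusted p = 0.227). Of the 7 genes on this list 6 were found and 2 tested, with 0 called by limma, 0 at an unadjusted p under 0.05 and 0 called by limma-voom.

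Enzymes that process or cleave neurotrophin precursors moved in both directions. Of 11 listed 6 were tested, and 3 rose and 2 fell. Over all tested genes 20.1% were called higher and 11.9% lower, and 6 genes are too few to read against these shares. Their median log2 difference was 0.20, against 0.03 over all tested genes. Pcsk5, a proprotein convertase, fell 2.17-fold from 4.02 ± 0.25 to 1.85 ± 0.22 RPKM (SD, n = 3; limma adjusted p = 0.000405). Pcsk7, another convertase, rose 1.27-fold (limma adjusted p = 0.00283), and Furin did not pass. Plat encodes tissue plasminogen activator, which generates plasmin, a protease that can cleave the BDNF precursor. It rose 1.23-fold, and the metalloproteinase gene Mmp3 rose 1.98-fold (limma adjusted p = 0.00722 and 0.00621).

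**Figure D3:**
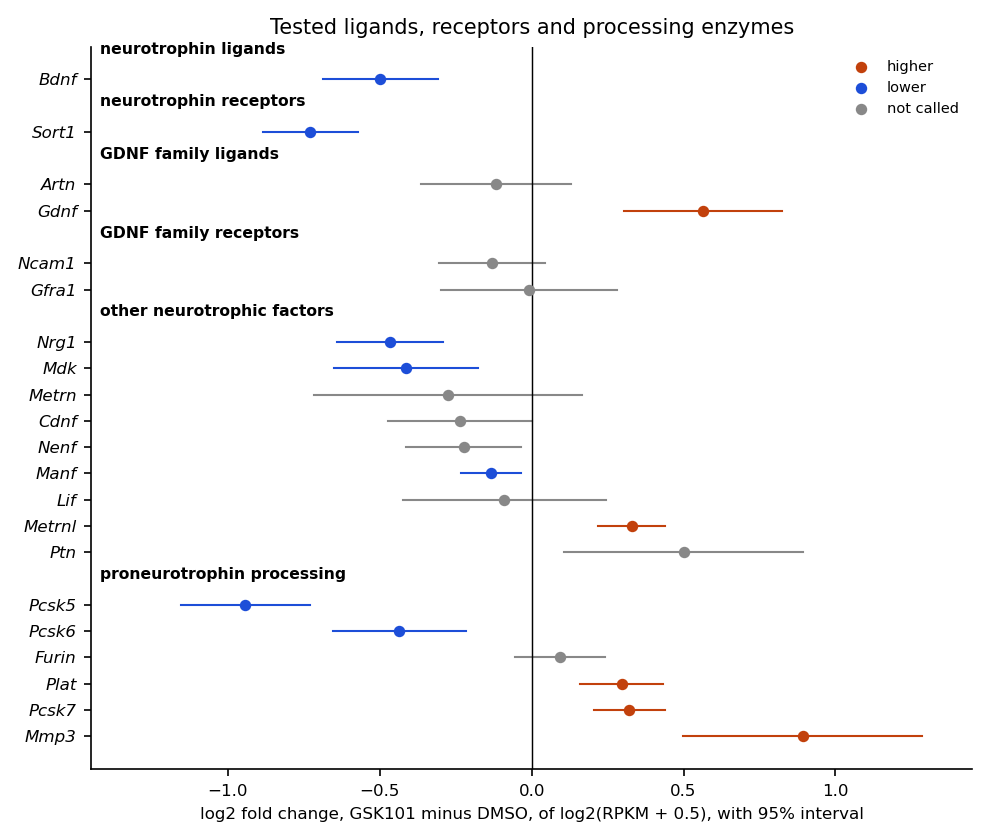
Log2 fold change of log2(RPKM + 0.5), GSK101 minus DMSO, with its 95% interval from limma, for tested ligands, receptors, other neurotrophic factors and processing enzymes that are reported here; color gives the call. Bdnf, Sort1 and Pcsk5 lie to the left of 0, from -0.94 to -0.50, and Gdnf lies to the right at 0.56.

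Other secreted neurotrophic factors were mixed: of 9 tested 1 rose and 3 fell, beside 20.1% higher and 11.9% lower over all tested genes. The median log2 difference of these 9 was -0.22. The number that rose was 2 without GSK101 replicate 3, without a filter, where 1 RPKM was required or with the replicate block, and 2 or 3 with limma-voom. Metrnl, a secreted relative of meteorin, rose 1.26-fold from 33.5 to 42.3 RPKM (limma adjusted p = 0.00196). Nrg1, the neuregulin that acts on Schwann cells through ERBB receptors, went from 4.30 to 2.97 RPKM, a log2 difference of -0.47 (limma adjusted p = 0.00323), and Mdk, midkine, fell by 0.41 (limma adjusted p = 0.0178). Manf fell by 0.13 (limma adjusted p = 0.0468) and lost its call in 10 of 18 alternatives, with adjusted p up to 0.142. Ptn, pleiotrophin, went from 71.5 to 103 RPKM with overlapping groups and was not called (log2 difference 0.50, limma adjusted p = 0.0568). It was called higher by limma-voom on genes with at least 10 reads (adjusted p = 0.00611). That fit called 3 genes of this list higher and 4 lower.

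Of 17 tested adaptors that act downstream of Trk receptors and RET, 3 rose and 0 fell in limma. The shares over all tested genes were 20.1% higher and 11.9% lower. The median log2 fold change of the adaptors was 0.03. At an unadjusted p under 0.05, 3 were lower, and 2 were called lower with median-ratio scaling, 3 with quantile normalization and 1 with limma-voom, with the replicate block or without control replicate 3. Crk rose 1.21-fold, Frs2, a docking protein of Trk receptors, 1.37-fold, and the phosphatase gene Ptpn11 1.17-fold (limma adjusted p = 0.00706, 0.0117 and 0.0123). Ptpn11 lost its call without GSK101 replicate 1 (adjusted p = 0.0529). Of 7 tested partners of the low-affinity neurotrophin receptor 2 fell, Maged1 and Bex3, by 0.17 and 0.14 on the log2 scale. They lost their calls in 8 and 13 of 18 alternatives, and 7 genes are too few to read against the shares over all tested genes. In limma 0 were called higher and 1 was higher at an unadjusted p under 0.05, while 1 was called higher after rescaling to TPM, without a mean-variance trend and in both limma-voom fits. It was Traf6, named after its values were seen, whose mean went from 0.745 to 1.04 RPKM, with the groups apart (limma adjusted p = 0.0552, and 0.0321 by limma-voom on genes with at least 10 reads). Among 10 listed genes of pain-sensing neurons 7 were found and 1 was tested, the ATP-gated channel gene P2rx3, which did not pass (limma adjusted p = 0.23). Calca, which encodes the precursor of calcitonin and the peptide CGRP, had 0.154 and 0.219 RPKM and was under the filter.

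Markers describe which cell types the libraries may hold, but not which cells hold the transcripts of the 9 genes. The fibroblast genes Col1a1 and Col3a1 stood at 1903 and 3521 RPKM in the controls and did not pass. Of the 7 fibroblast markers tested 4 rose, Dcn, Lum, Pdgfra and Fn1, by 0.30 to 0.54 on the log2 scale, and Thy1 fell by 0.23. Over all tested genes 20.1% were called higher and 11.9% lower. The summed level of the 7 was 7421 to 8388 RPKM in the controls and 6714 to 7931 with GSK101. The 4 that rose moved in the same direction as Gdnf. So did Prg4, a marker of synovial lining, the endothelial marker Kdr and the macrophage marker Cd14. Each of these was the 1 called gene of its list. The part of all these markers in the Gdnf result was not tested. Genes of the same lists without a call were mixed. Means were lower with GSK101 for Tspan15, Ptprc, Cd68, Csf1r, Adgre1, Cdh5 and Tek. They were higher for Htra1, Clic5, Lyz2, Vwf and Tie1. The summed level of 10 neuronal markers was 37.7 to 41.7 RPKM in the controls and 38.1 to 42.3 with GSK101, but Elavl4 and Rbfox3 were at or near 0. Of the 6 tested 1 was called, Tubb3, which fell (limma adjusted p = 0.0192). For 9 Schwann cell markers the summed level was 65.1 to 66.6 and 61.9 to 65.2 RPKM, with the defining gene Sox10 under 0.1 RPKM on average in both groups. Of the 5 tested S100b rose and Pmp22 fell (limma adjusted p = 0.0402 and 0.00232). Of 5 chondrocyte markers the 2 tested, Acan (33.6 and 31.9 RPKM) and Sox9 (2.80 and 2.46 RPKM), were not called. For 6 markers of pericytes and smooth muscle the summed level went from 5359 to 5572 down to 2953 to 3217 RPKM. Most of this sum was Acta2, with means of 4946 RPKM in the controls and 2734 with GSK101. Of the 5 tested, 4 fell. The 4 pericyte and smooth muscle markers that fell moved in the same direction as Bdnf and Sort1, and their part in these results was not tested. Cspg4 and Rgs5 of this list had higher means with GSK101. Cspg4 was not called (log2 difference 0.20, limma adjusted p = 0.116), but was called higher by limma-voom on genes with at least 10 reads (adjusted p = 0.0357). Rgs5 lay under the filter, at 0.129 RPKM in the controls and 0.212 with GSK101. In bulk samples fewer cells of a type and less RNA per cell cannot be told apart.

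The 3 tested genes whose log2 values followed Bdnf most closely over the 6 libraries were Nkain4, Pick1 and Slc25a1, with Pearson correlations of 0.998, 0.998 and 0.997. This is a description over libraries that share their 2 groups, and 532 genes had a correlation above 0.95. Trpv4, the gene of the channel itself, had 36 to 48 reads per library and a mean of 0.298 RPKM in the controls and 0.295 with GSK101 (exact two-sided permutation p = 1).

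The libraries held 43061102 to 45705238 counted reads, and the first principal component, with 55.5% of the variance, separated the groups. The share of all calls that were higher was 62.9% for the deposited RPKM, 72.5% in TPM units, 52.7% with median-ratio scaling and 48.1% with quantile normalization. The calls of Bdnf and Gdnf held under each of these scalings. None of the 9 genes shares exon positions with another gene of the file.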

How the data were processed

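Per the labels' protocols, stranded libraries of polyadenylated RNA with molecular identifiers of 8 bases were sequenced in paired-end mode. The authors deposited 1 table of RPKM values and gene lengths (bases of exon, which is the other unit used). Tools named in the submitters' processing notes are STAR 2.5.3a, edgeR 3.12.1, Subread 1.5.1 with featureCounts, and Trimmomatic 0.36, and the build is Rnor_6.0. Their roles, the collapsing of duplicates, the use of strand and the handling of reads that map to several places are not given in the sources used here.

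RPKM times length gave whole reads, to within 0.01 of a read, for 100% of values. Even numbers made up 71.3% to 74.7% of the values from 1 to 10 reads, so mates may have been counted singly. Read numbers and the floor of 3 reads per library cover counting error only.

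Groups were compared with limma (version 3.58.1, R version 4.3.3) applied to log2(RPKM + 0.5), with a mean-variance trend and group as the only term, tested on simulated data. Fold changes on that scale understate changes of low genes, so ratios of means are given beside them. Members under the filter had an exact permutation test (SciPy 1.17.1). The main test used the deposited RPKM, and no negative binomial model was fitted. Recovered reads entered limma-voom as an alternative.

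The members and gene lists were chosen with earlier results of these data known. Genes named were the 9 members, Trpv4, the 4 or fewer called genes of lowest adjusted p in each list (the 2 of highest level were added where fewer than 2 were called), and the 3 genes most like Bdnf. Furin, Traf6, Ptn and the marker genes were named after their values were seen. Listed genes not found under a current or older symbol were not analysed here, and some listed genes are not reported here. Alternatives covered 2 pseudocounts, 2 filters, 3 scalings, variance models, the replicate block and leaving out each library.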

Additional observations from a re-analysis of the deposited data

How the results depend on the processing

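Bdnf stayed lower and Gdnf higher, each past the threshold, in all 18 alternatives run, with log2 fold changes from -0.66 to -0.40 and from 0.48 to 0.68 and limma adjusted p up to 0.0156 and 0.0274. The number of members called lower rose from 1 to 2 without a filter on low values and with limma-voom on genes with at least 10 reads, through Ntrk3, and the number called higher stayed at 1. Among genes with no call the sign changed in some alternatives for Ntf3, Ngfr, Gfra1, Sorcs2 and Trpv4, and Artn, Ncam1, Ntrk2, Gfra2, Ret and P2rx3 kept theirs wherever a value was given. The log2 ratio of Ntf3, which rests on 2 to 4 reads per library and is not read as a direction, was 0.0054 in all libraries, -0.032 with median-ratio scaling, -0.077 with quantile normalization and -0.27 to 0.27 when single libraries were left out. That of Ngfr (0.057) was -0.0094 with quantile normalization and -0.31 to 1.30 without single libraries. Gfra1 was at 0.012 after rescaling to TPM and at -0.094 to 0.070 without single libraries, Trpv4 at 0.024 and at -0.12 to 0.092, and Sorcs2 at -0.0024 to 0.56. The cause was not tested. Gfra1 gave no value where 1 RPKM was required, nor did genes under the filter in the alternatives that keep it. Deviations of same-numbered libraries from their group means had correlations of 0.0544, -0.0631 and 0.0519. Unlike-numbered libraries had -0.149 to 0.107. These values cannot tell whether same-numbered libraries share an origin, which is not given. With the replicate block 2508 genes were higher and 1437 lower, against 2570 and 1518 without it, and adjusted p was 0.00995 for Bdnf and 0.0117 for Gdnf. Depth limits Ntf3, Ngfr, Ntrk2 and Gfra2, with 2 to 44 reads per library.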

Other observations

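Genes outside the naming rule, picked after their values were seen, added to the picture of secreted factors and their processing. Pcsk6, another proprotein convertase, fell 1.38-fold from 10.2 ± 1.2 to 7.37 ± 0.61 RPKM (SD, n = 3; limma adjusted p = 0.0107). Hgf, which encodes hepatocyte growth factor and also acts on neurons, lay under the filter at 39, 50 and 57 reads in the controls and 83, 89 and 87 with GSK101, 1.78-fold higher by the means with no overlap. By limma-voom on genes with at least 10 reads its log2 fold change was 0.85 (adjusted p = 0.00572), and the exact two-sided permutation p was 0.1, the smallest that 3 against 3 allows.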
